A study of Mus musculus with 16 samples.

Results

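Expanded conventional T cells at day 5 were the tumour-infiltrating T cells whose receptor was already carried by another cell of the same library 5 days after tumour injection. They were chosen from the day 5 T cell receptor (TCR) libraries, from barcodes called cells, using productive contigs of high confidence and the TRA (alpha) and TRB (beta) chain with the most UMIs, unique molecular identifiers that count captured transcripts. Cells whose alpha chain joined any copy of TRAV11 to TRAJ18, the invariant chain of natural killer T cells, were left out. Cells of a library with the same V segment, J segment and CDR3 nucleotides in both chains formed a clonotype, and clonotypes of 2 or more cells are called expanded. This gave 121 cells in 38 clonotypes, out of 1318 conventional paired cells at day 5 and 4787 paired cells in the 8 libraries of the series. The sizes of the clonotypes chose the cells and are given as description.

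The mice were C57BL/6 and carried Hepa1-6 cells, a mouse hepatoma line, in the left liver lobe. The KO group was CD4creMatr3fl/fl and the CON group CD4creMatr3WT/WT, so both carried Cre recombinase under the Cd4 promoter, which is also active in the thymic precursors of CD8 T cells. Matrin 3, the product of Matr3, is a protein of the nuclear matrix with domains that contact RNA and DNA. Of the 16 samples, 8 are TCR libraries, 2 for each genotype at day 5 and 2 at day 14, and the age of the mice is not given in the sources used here. The series asks what loss of Matr3 in T cells does to infiltrating cells and their receptors. Nothing in the sources used here ties each library to its own mouse, so every permutation p-value measures the spread between libraries, which may be technical. The p-values for segments come from count models with the library as a block, so they also carry counting error. The 8 single-cell RNA libraries are not analysed here, and contig tables cannot show the level of Matr3 or tell CD4 from CD8 cells.

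As background, each developing T cell joins V, (D) and J segments by chance in the thymus, with bases trimmed and added at the joints, so the CDR3 that spans the joint differs from cell to cell. When a T cell divides, its daughters inherit both rearranged chains unchanged. A receptor seen in several cells of a tissue is therefore the usual mark of a cell that has divided. The beta locus lies on chromosome 6 and the alpha locus on chromosome 14 of the mouse, and a T cell can rearrange both of its alpha alleles. Cells captured from the same clone in 1 droplet library share this history, so cells of a clonotype are not replicates of a genotype.

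The CDR3 nucleotides of the most frequent expanded clonotype of each day 5 library are shown because they carry the largest shares of the expanded cells. They run 5′ to 3′ as deposited. Capitals mark the middle bases, those outside the most common V start and J end of the same segments in these libraries. They can hold D segment bases, added bases and trimmed differences. The common ends were read from the CDR3s themselves and can take in D or added bases, so middle bases can be too few. Of the TRBJ2-7 chains below, the lower-case J end is longer in CON replicate 1 than in KO replicate 2.
KO replicate 1, TRA, TRAV6-6 with TRAJ40: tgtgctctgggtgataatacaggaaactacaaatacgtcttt
KO replicate 1, TRB, TRBV1 with TRBJ2-7: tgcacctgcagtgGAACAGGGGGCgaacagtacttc
KO replicate 2, TRA, TRAV5-4 with TRAJ13: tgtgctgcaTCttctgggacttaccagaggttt
KO replicate 2, TRB, TRBV13-3 with TRBJ2-7: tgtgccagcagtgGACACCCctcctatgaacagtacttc
CON replicate 1, TRA, TRAV5D-4 with TRAJ5: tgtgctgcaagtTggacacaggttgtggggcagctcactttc
CON replicate 1, TRB, TRBV19 with TRBJ2-7: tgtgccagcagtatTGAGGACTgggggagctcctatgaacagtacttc
CON replicate 2, TRA, TRAV9-1 with TRAJ22: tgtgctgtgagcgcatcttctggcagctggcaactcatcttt
CON replicate 2, TRB, TRBV26 with TRBJ1-2: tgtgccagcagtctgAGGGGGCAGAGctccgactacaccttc

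The alpha chains, which have no D segment, had fewer middle bases than the beta chains. The 4 alpha CDR3s had 0, 2, 1 and 0 middle bases and the 4 beta CDR3s 11, 7, 8 and 11, in the order shown. Over all expanded clonotypes the median was 2 middle bases for TRA and 9 for TRB, against 2 and 10 over the 1197 unexpanded clonotypes, those seen in 1 cell.

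The libraries did not stand on an equal footing. The day 5 libraries held 7683 to 15674 UMIs in productive chains and 261 to 450 conventional paired cells. CON replicate 2 was the deepest in both, and its TRB chains had a median of 13 UMIs, against 9 to 10 in the other 3. Few cell barcodes were shared, 21 barcodes lying in 2 of the 8 libraries and at most 3 in any pair, and 1 expanded cell had a barcode that also occurred in another library.

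The expanded cells lay mostly in 1 CON library. In KO libraries 13 of 292 and 9 of 261 conventional paired cells were expanded, in 6 and 4 clonotypes, against 20 of 315 and 79 of 450 cells in CON libraries, in 5 and 23 clonotypes. The share was 4.45% in KO replicate 1 (95% exact binomial interval 2.39% to 7.49%) and 3.45% in KO replicate 2 (1.59% to 6.44%). It was 6.35% in CON replicate 1 (3.92% to 9.64%) and 17.6% in CON replicate 2 (14.2% to 21.4%). These intervals cover counting error only and treat each cell as an independent draw. Expanded cells come in groups by clonotype, so the intervals are too narrow. Both KO libraries were below both CON libraries, but the interval of CON replicate 1 overlapped those of both KO libraries. KO libraries averaged 3.95% ± 0.71 and CON libraries 11.95% ± 7.92 (SD, n = 2 each). The KO minus CON difference was -8.00 percentage points, with p = 0.333 in the two-sided exact permutation test, the smallest that 2 against 2 allows. Without CON replicate 2 it was -2.40 points.

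**Figure D1:**
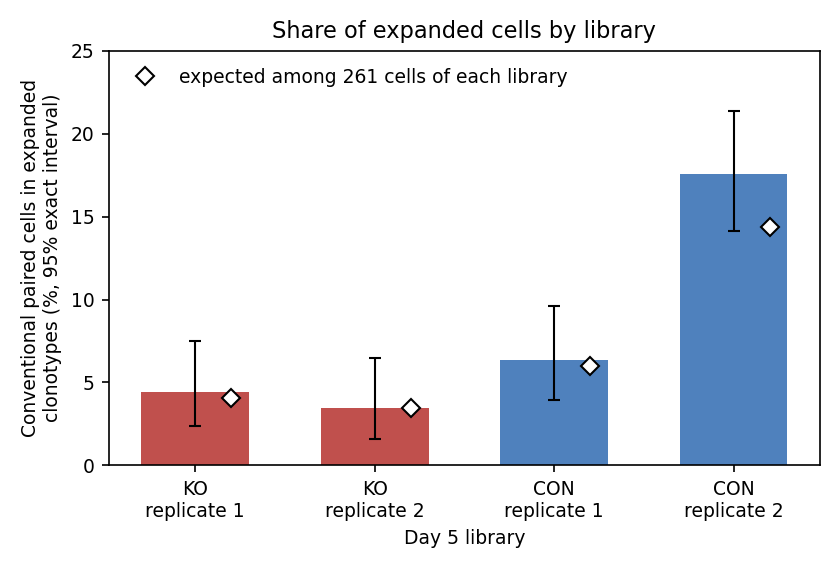
Share of conventional paired day 5 cells in expanded clonotypes, in percent, for each library, with KO libraries in red and CON libraries in blue. Error bars are 95% exact binomial intervals that treat cells as independent, and diamonds give the share expected among 261 cells of each library. CON replicate 2, at 17.6%, lies above the other 3, which lie between 3.45% and 6.35%.

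A larger sample finds more repeated receptors, so the share was also computed for an equal number of cells. Among 261 cells, the size of the smallest library, the expected share was 4.08% and 3.45% in KO libraries, against 6.02% and 14.4% in CON libraries, a difference of -6.42 points (exact permutation p = 0.333). The share of clonotypes that were expanded overlapped between genotypes, at 2.11% and 1.56% in KO libraries, against 1.67% and 5.84% in CON libraries (difference -1.92 points, exact permutation p = 0.667). The mean size of an expanded clonotype was 2.17 and 2.25 cells in KO libraries, against 4 and 3.43 cells in CON libraries, and the most frequent clonotype held 3 and 3 cells in KO libraries, against 10 and 15 in CON libraries.

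Most of the expanded clonotypes were as small as the rule allows. There were 25 clonotypes of 2 cells and 6 of 3 cells. Of the other 7, 2 had 4 cells, and 1 each had 5, 7, 8, 10 and 15 cells. None of the clonotypes with 4 or more cells came from a KO library, 2 came from CON replicate 1 and 5 from CON replicate 2. Just inside the threshold lay the 25 pairs and just outside it the 1197 clonotypes of 1 cell.

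**Figure D2:**
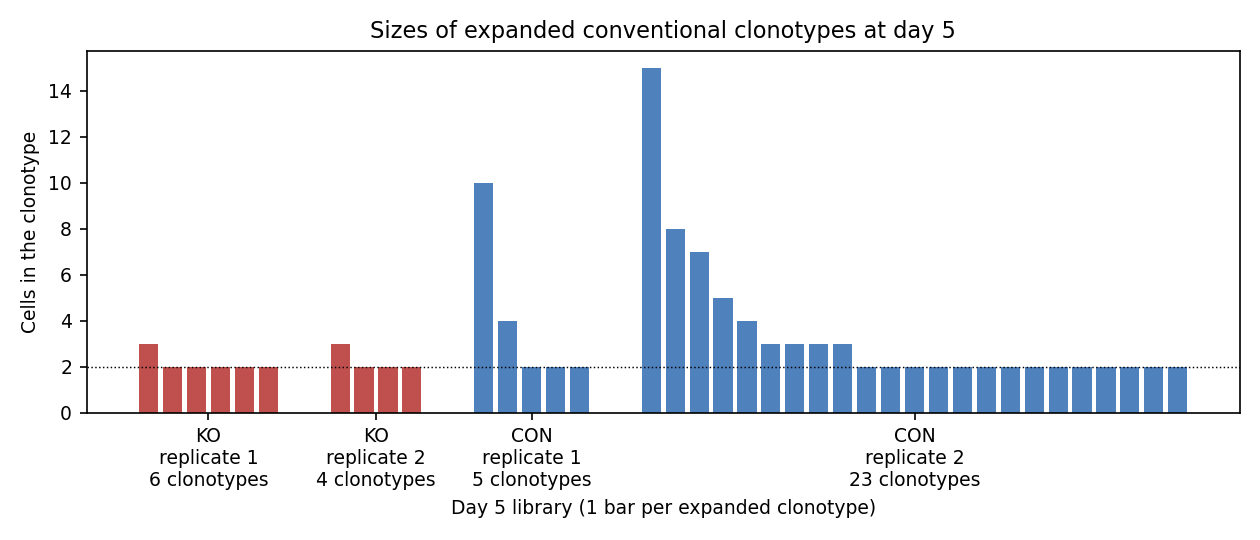
Cells in each of the 38 expanded conventional clonotypes at day 5, 1 bar per clonotype, in order of size within each library, with KO in red and CON in blue. The dotted line is the threshold of 2 cells. No bar of a KO library exceeds 3 cells, while CON replicate 1 reaches 10 and CON replicate 2 reaches 15.

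The most frequent clonotype of all was the TRBV26 clonotype of CON replicate 2, with 15 cells or 3.33% of the conventional paired cells of its library. Its beta chain joined TRBV26 (chromosome 6, 41227525 to 41227913, GRCm38, a V segment) to TRBJ1-2 (41534001 to 41534048, a J segment). Its alpha chain joined TRAV9-1 (chromosome 14, 53488106 to 53488567) to TRAJ22 (54197248 to 54197307). Both CDR3s had 14 residues. Its cells carried 1 to 20 TRA UMIs (median 8) and 5 to 30 TRB UMIs (median 13). With a further 2-cell clonotype, TRBV26 made up 17 of the 121 expanded cells.

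In CON replicate 2 the next clonotypes held 8, 7, 5 and 4 cells. The clonotype of 8 cells paired TRAV8D-2 and TRAJ23 with TRBV17 and TRBJ1-2. Its beta CDR3 of 12 residues held 1 middle base, so nearly the whole loop matched the common V start and J end, and its TRB chains had 11 to 32 UMIs. The clonotype of 7 cells paired TRAV12-2 and TRAJ22 with TRBV3 and TRBJ1-4, and its TRA chains had 1 to 9 UMIs. The clonotype of 5 cells paired TRAV3D-3 and TRAJ12 with TRBV12-2 and TRBJ2-1, and it had the highest median of these, 26 TRB UMIs. The clonotype of 4 cells paired TRAV12D-2 and TRAJ5 with TRBV5 and TRBJ2-7.

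The 10 cells of the leading clonotype of CON replicate 1 paired TRAV5D-4 and TRAJ5 with TRBV19 and TRBJ2-7, and they carried 1 to 9 TRA UMIs and 1 to 18 TRB UMIs. In 4 of the 10 the alpha chain rested on 1 UMI. A further 5 cells of the library carried the same beta chain and no alpha chain, so they could not enter the clonotype. The second clonotype, of 4 cells, paired TRAV8N-2 and TRAJ21 with TRBV13-1 and TRBJ2-7, and the third, of 2 cells, TRAV13N-1 and TRAJ49 with TRBV2 and TRBJ2-4.

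The KO libraries held no clonotype of more than 3 cells. The leading clonotype of KO replicate 1, TRAV6-6 and TRAJ40 with TRBV1 and TRBJ2-7, had 3 cells with 3 to 5 TRA UMIs and 7 to 20 TRB UMIs. The leading clonotype of KO replicate 2, TRAV5-4 and TRAJ13 with TRBV13-3 and TRBJ2-7, had 3 cells with 6 to 28 TRA UMIs and 18 to 59 TRB UMIs. The next 2 of KO replicate 1 had 2 cells each and used TRAV7D-5 with TRBV13-2 and TRAV7-3 with the joint name TRBV12-2+TRBV13-2, which the deposited tables give where they name a pair of segments. The next 2 of KO replicate 2 had 2 cells each and used TRAV9D-3 with TRBV16 and TRAV9-4 with TRBV12-1.

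Cells of a clonotype also shared alpha rearrangements that played no part in defining it. Because both alpha alleles can rearrange, many T cells carry another alpha transcript, often one that is out of frame or otherwise non-productive. Such another TRA rearrangement was read in 60 of the 121 expanded cells. In KO libraries it was read in 0 of 13 (replicate 1) and 6 of 9 (replicate 2). In CON libraries it was read in 7 of 20 (replicate 1) and 47 of 79 (replicate 2). A count of 0 of 13 would allow up to 23.1% if cells were independent. Those 13 cells came from 6 clonotypes, so that bound is too low. In unexpanded cells another TRA rearrangement was read in 35.1% and 38.5% in KO libraries and in 32.9% and 34.8% in CON libraries. Pairs of such cells inside a clonotype had the same V and J segments in the other rearrangement in 4 of 4 pairs in KO replicate 2, 3 of 3 in CON replicate 1 and 49 of 54 (90.7%) in CON replicate 2. Pairs between different clonotypes did in 0 of 11, 0 of 18 and 2 of 1027 (0.195%), in the same order of libraries. Nearly all pairs came from CON replicate 2, where large clonotypes give many pairs. Counted by clonotype, all pairs matched in 17 of the 18 clonotypes with 2 or more such cells. The rule had not used this readout.

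The 18 clonotypes each shared another TRA rearrangement between 2 or more cells, 2 from KO replicate 2, 3 from CON replicate 1 and 13 from CON replicate 2. It was non-productive in 15 of them and productive in 3. In 13 of the 18 a CDR3 was reported for 2 or more cells, and in all 13 these cells had 1 and the same CDR3 nucleotide sequence. The following are shown because they identify the cells of 3 leading clonotypes by sequence outside their functional receptor. They are printed without capitals, since the CDR3 called in a non-productive chain need not begin and end where that of a productive one does.
TRBV19 clonotype of CON replicate 1, TRAV14-1 with TRAJ11, 2 of 10 cells: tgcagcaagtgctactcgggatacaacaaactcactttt
TRBV26 clonotype of CON replicate 2, TRAV12-2 with TRAJ22, 6 of 15 cells: tgtgctttgagtatcttctgg
TRBV17 clonotype of CON replicate 2, TRAV6-7 with TRAJ11, 5 of 8 cells: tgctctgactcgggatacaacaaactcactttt

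**Figure D3:**
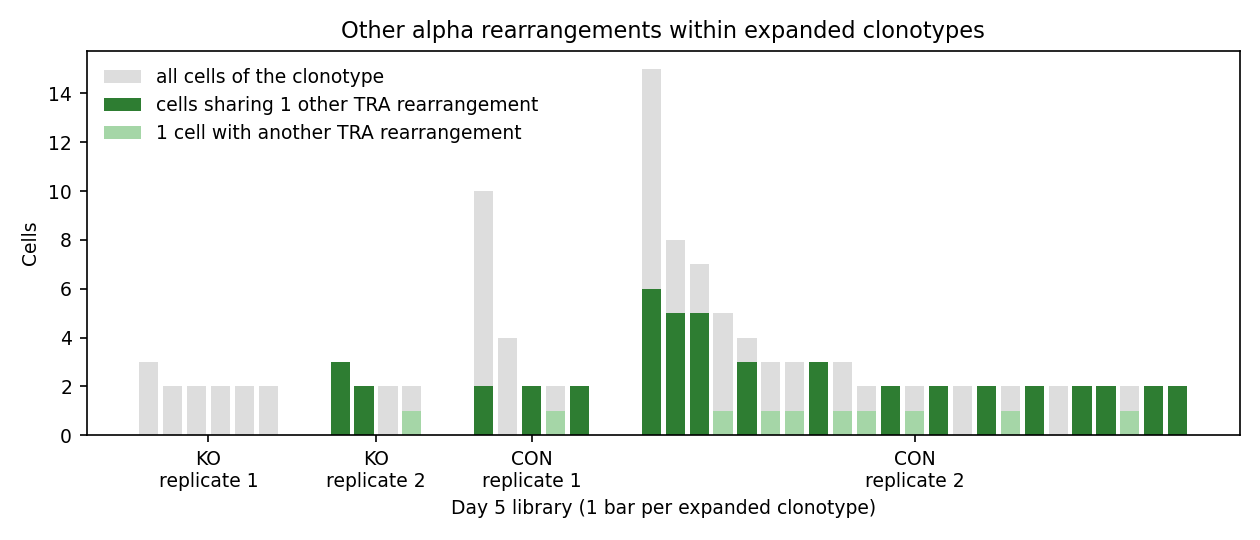
Cells in each expanded clonotype (grey) and, of these, the cells that share 1 other TRA rearrangement (dark green) or the single cell that has one (light green), by day 5 library. The shared rearrangement was read in 6 of the 15 cells of the most frequent clonotype and in no cell of KO replicate 1.

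The exceptions among alpha pairs lay in 1 clonotype. In the TRBV3 clonotype of CON replicate 2, 5 of 7 cells had a non-productive TRAV11-TRAJ26 rearrangement and 1 had TRAV11-TRAJ25. This gave the 5 pairs that did not match by segment name. The CDR3 had 66 bases under both names, and the TRAJ25 contig rested on 1 UMI. Whether the 2 names stand for 1 rearrangement was not tested. Another TRB rearrangement was read in 9 expanded cells. By segment name only the TRBV5 clonotype of CON replicate 2 shared one, TRBV15-TRBJ1-1, in 3 of its 4 cells. A 2-cell TRBV19 clonotype of that library had non-productive TRBV12-2+TRBV13-2 with TRBJ1-4 in 1 cell and TRBV13-2 with TRBJ1-4 in 1 cell. Each rested on 5 UMIs with no CDR3 reported. Whether these too are 1 rearrangement under 2 names was not tested. The non-productive TRAV11 chains of the TRBV3 clonotype are not the invariant chain. The rule left out cells whose leading alpha was TRAV11-TRAJ18, and no expanded cell carried it as a second productive chain.

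A second productive alpha chain was found in 6 of 121 expanded cells (4.96%, 95% exact interval 1.84% to 10.5%), against 124 of 1197 unexpanded cells (10.4%, 8.69% to 12.2%). The intervals overlapped, and that of expanded cells is too narrow, since it treats each cell as an independent draw. The 6 cells came from 3 clonotypes of 2 cells in CON replicate 2, so they count as 3 rearrangements. By clonotype this is 3 of 38 expanded, against 124 of 1197 unexpanded. The 3 clonotypes paired a second alpha of TRAV9-1-TRAJ27 with TRBV26, of TRAV13-4-TRAJ27 with TRBV19 and of TRAV13-2-TRAJ42 with TRBV1.

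The receptor markers of other lymphocytes were absent or near absent. TRAV1 joined to TRAJ33, the chain of mucosal-associated invariant T cells, was the alpha of 0 of 38 expanded clonotypes, which allows up to 7.89%, against 3 of 1197 unexpanded ones (0.251%). No expanded cell had an immunoglobulin contig. A delta chain contig was read in 2 cells and was productive in neither. A second productive TRB chain, as a droplet with 2 cells would give, was found in 1 of 121 expanded cells, against 46 of 1197 unexpanded ones. No 2 cells of a clonotype had barcodes that differed at 1 position. The smallest difference was 4 positions over 264 pairs and the median was 12, the same median as between clonotypes.

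Cells and barcodes outside the rule carried the same beta chains. A further 16 cells had the TRB of an expanded clonotype and no alpha chain, from 10 of the 38 clonotypes, and none had that TRB with another alpha. In 37 barcodes not called cells, with 48 UMIs in all, the TRB of an expanded clonotype of the same library was read, and in 0 barcodes that of another day 5 library. The TRBV26 clonotype gave 9 of them and the TRBV19 clonotype of CON replicate 1 gave 7. Such barcodes were found for 15 of 38 expanded clonotypes (39.5%), against 148 of 1197 unexpanded ones (12.4%), and came to 30.6 and 15.3 for every 100 cells of the class. By the rule an expanded clonotype has more cells, and most expanded cells lay in the deepest library. Neither figure therefore compares like with like. Of the 38 clonotypes 37 had 1 of the authors' clonotype identifiers for all their cells.

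The UMIs of the receptor chains showed no direction common to the libraries for TRB. For that chain the medians of expanded and unexpanded cells were 6 and 10 in KO replicate 1, 18 and 10 in KO replicate 2, 8.5 and 9 in CON replicate 1, and 14 and 13 in CON replicate 2. Expanded cells were higher in 1 library of each genotype and lower in the other. The mean difference was 1.12 ± 5.04 UMIs (SD, n = 4), with p = 0.75 in the two-sided exact sign-flip permutation test over the 4 libraries, whose smallest p is 0.125. Without KO replicate 2 it was -1.17. For TRA the medians of expanded and unexpanded cells were 3 and 3, 6 and 4, 4 and 3, and 6 and 5 in the same order, a mean difference of 1.00 ± 0.82 UMIs (exact sign-flip permutation p = 0.25). Expanded cells had the higher TRA median in 3 libraries and a tie in the other. Without the most frequent clonotype of each library the mean difference was 0.75 UMIs, and the higher median no longer held in all 3.

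**Figure D4:**
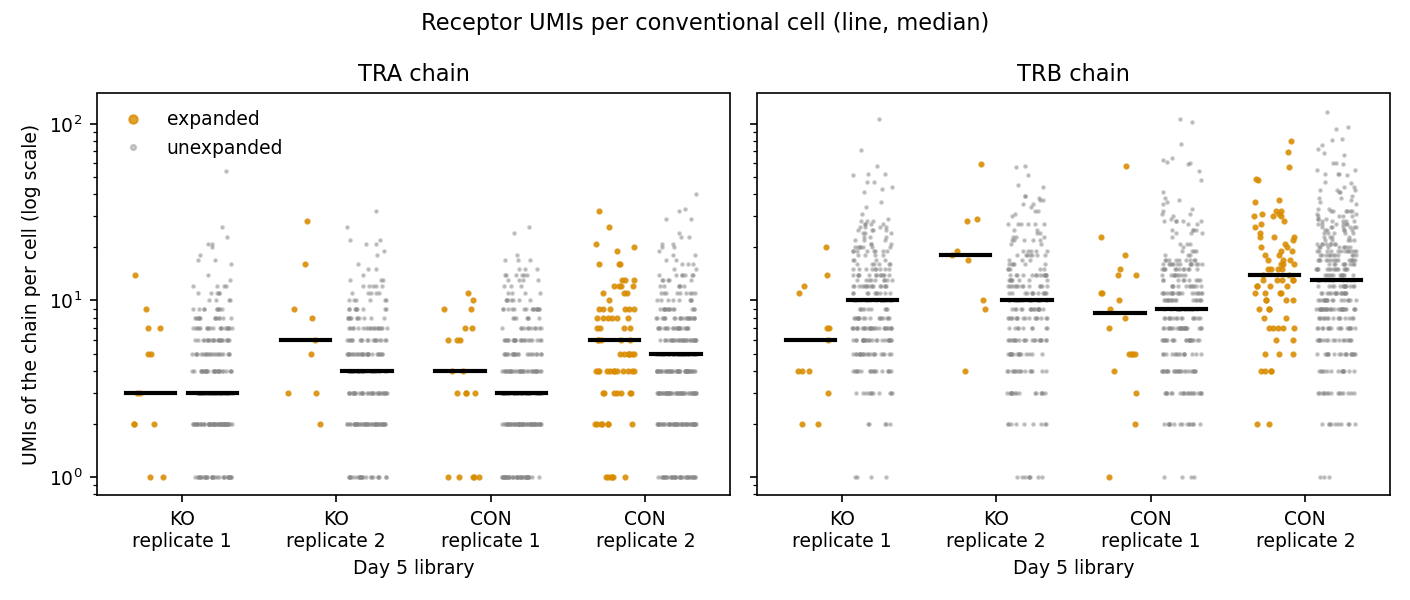
UMIs of the TRA (left) and TRB (right) chain in each conventional paired day 5 cell, on a log scale, with expanded cells in orange and unexpanded cells in grey for each library. Black lines are medians. The TRB median of expanded cells is 18 in KO replicate 2 and 6 in KO replicate 1, where unexpanded cells have 10 in both.

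The CDR3 loops of expanded clonotypes were near the length of the others. With each clonotype counted once, the median was 14 residues for both chains in expanded and in unexpanded clonotypes. TRB lengths ran over 11 to 17 residues in expanded and 8 to 19 in unexpanded clonotypes. The mean TRB length of expanded and unexpanded clonotypes was 13.8 and 14.0 residues in KO replicate 1, 12.0 and 14.0 in KO replicate 2, 14.8 and 13.9 in CON replicate 1, and 14.0 and 13.8 in CON replicate 2. Expanded clonotypes were shorter in both KO libraries and longer in both CON libraries. The mean difference over the 4 libraries was -0.26 ± 1.22 residues (exact sign-flip permutation p = 0.875), and without KO replicate 2, which had 4 expanded clonotypes, it was 0.31.

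The other sequence measures also stayed within the spread between libraries. The TRA CDR3 of expanded clonotypes differed by -0.31 ± 0.60 residues (exact sign-flip permutation p = 0.5), with -0.64 and -0.99 in KO libraries, against 0.24 and 0.14 in CON libraries. The hydropathy of the TRB CDR3 is the mean Kyte-Doolittle value without 4 residues at either end. It averaged -0.88 ± 0.54 in expanded and -1.10 ± 0.06 in unexpanded clonotypes. The difference within libraries was 0.22 ± 0.57 (exact sign-flip permutation p = 0.75). Middle bases of the TRB averaged 9.48 ± 1.20 in expanded and 9.56 ± 0.25 in unexpanded clonotypes. Their difference within libraries was -0.08 ± 1.11 (exact sign-flip permutation p = 1). Without KO replicate 2 the differences in hydropathy and middle bases changed sign, to -0.0566 and 0.402, and without CON replicate 2 that in middle bases was 0.0114. Adjusted over the 8 measures tested, the smallest p was 0.667.

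The expanded clonotypes drew on many segments, and no segment was used more or less than in unexpanded clonotypes past the threshold. They used 16 TRBV, 10 TRBJ, 22 TRAV and 24 TRAJ segments, with the duplicated TRAV copies merged. Of the 106 segments tested with each clonotype counted once, edgeR called 0, or 0%, at an adjusted p of 0.05. At an unadjusted p under 0.05 there were 2, and DESeq2 called 0, with 18 at that unadjusted level. With 38 expanded clonotypes, 35 of the tested segments had none in the expanded class.

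TRBV19, a Vbeta6 segment (chromosome 6, 41178589 to 41179048), had the most expanded clonotypes of any V segment. It was used by 6 of 38 expanded clonotypes (15.8%), against 85 of 1197 unexpanded ones (7.10%), and held 22 of the 121 expanded cells. None of the 6 came from a KO library, 1 came from CON replicate 1 and 5 from CON replicate 2. TRBV13-3 followed with 5 expanded clonotypes, against 74 unexpanded, and 3 of the 5 were from KO libraries. TRBV1, TRBV13-1 and the joint name TRBV12-2+TRBV13-2 had 3 each, against 79, 75 and 99 in unexpanded clonotypes. None of these had an edgeR adjusted p under 0.05.

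Among alpha V segments TRAV3-3 led with 4 of 38 expanded clonotypes (10.5%), against 42 of 1197 unexpanded ones (3.51%). It was used by 2 clonotypes in KO replicate 1 and 2 in CON replicate 2. TRAV12-2, TRAV13-1, TRAV6-6 and TRAV6-7 had 3 each, against 58, 58, 63 and 52. The 3 TRAV12-2 clonotypes, like the 3 of TRAV6-7, were all of CON replicate 2.

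The 2 segments with an unadjusted p under 0.05 were both J segments. TRAJ53 (chromosome 14, 54162644 to 54162709) was used by 3 of 38 expanded clonotypes (7.89%), against 9 of 1197 unexpanded ones (0.752%), and edgeR gave a log2 fold change of 3.03 with an SE of 1.14 (adjusted p = 0.86). All 3 were of CON replicate 2, and they differed in their other segments. TRBJ1-3 (chromosome 6, 41534323 to 41534372) was used by 6 expanded clonotypes (15.8%), against 72 unexpanded ones (6.02%), with 1 of the 6 in KO replicate 1 and 5 in CON replicate 2. Its log2 fold change in edgeR was 1.55, with an SE of 0.78 and an adjusted p of 0.86, and it was -0.03 without CON replicate 2. With TMM factors it was -0.22 and with DESeq2 -0.70, but these scalings moved the median log2 fold change of all 106 segments to -1.62 and -1.37, against -0.13, so that TRBJ1-3 lay above the median in each.

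Several common segments were seen in no expanded clonotype. TRAJ26, TRAJ15, TRBV15, TRBV10 and TRAJ34 were used by 59, 40, 39, 46 and 40 unexpanded clonotypes, or 3.26% to 4.93% of them. A count of 0 of 38 allows a share of up to 7.89%, so a lower use of these segments was not detectable at this depth.

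By cells rather than clonotypes, a few clonotypes set the order. TRBJ2-7 had 33 of the 121 cells in 9 clonotypes of all 4 libraries, and TRBJ1-2 had 25 cells in 3 clonotypes of CON replicate 2. TRAJ22 had 24 cells, 22 of them in the TRBV26 and TRBV3 clonotypes. The Jbeta2 cluster, the J segments that lie beside TRBC2, was used by 26 of 38 expanded clonotypes (68.4%), against 811 of 1197 unexpanded ones (67.8%). All 12 expanded clonotypes with a Jbeta1 segment were joined to TRBC1 and all 26 with a Jbeta2 segment to TRBC2, the constant segment of the same cluster.

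No receptor was expanded in more than 1 library. Of the 38 clonotypes 4 pairs shared both TRBV and TRBJ, among them TRBV13-3 with TRBJ2-7 in both KO libraries, and no pair shared both TRAV and TRAJ. No beta CDR3 came within 2 substitutions of another of the same length, whatever the V segment, and the nearest were 3 apart. None of the 38 TRB chains occurred with the same V segment and CDR3 residues in another day 5 library, against 8 of 1197 in unexpanded clonotypes.

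A few alpha chains recurred with other beta partners. The alpha V segment and CDR3 residues of 3 expanded clonotypes occurred in another library (7.89%), against 52 of 1197 unexpanded ones (4.34%). The TRAV9-1-TRAJ22 chain of the 15-cell clonotype was found in 2 cells of 2 day 14 libraries with the same nucleotides and other beta chains. It has 0 middle bases in the sequence shown above. The TRAV8-2-TRAJ23 chain of the 8-cell clonotype was found in 2 cells of a day 14 library with other nucleotides. The TRAV14-3-TRAJ42 chain of a 3-cell clonotype, also with 0 middle bases, was found in 1 cell at day 5.

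None of the expanded beta chains of day 5 was read again at day 14. The 4 day 14 libraries held 1669 distinct TRB chains by V segment and CDR3 residues, in 3418 cells. Of the 38 expanded clonotypes 0 had an identical chain there, which allows a share of up to 7.89%, against 7 of 1197 unexpanded ones (0.585%). A share like that of unexpanded clonotypes could not have been seen with 38 clonotypes. Tumours were excised at each day, so an identical chain would be a shared receptor and not a clone followed in time.

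Close relatives at day 14 were read for few expanded clonotypes. With the same V segment and length and up to 1 substitution, 0 of 38 expanded clonotypes had a day 14 relative, against 60 of 1197 unexpanded ones (5.01%). The difference of library means was -5.06 ± 1.02 percentage points (SD, n = 4) and below 0 in all 4 libraries. The exact sign-flip permutation p was 0.125, the smallest possible, and 0.667 adjusted over 8 measures. As the expanded share was 0 in each library, the SD is the spread of the unexpanded shares alone. With 6, 4 and 5 expanded clonotypes in 3 libraries, shares of 3.73% to 6.09% would mostly read as 0. This p therefore cannot tell the classes apart. A count of 0 of 38 allows up to 7.89%, so the share of 5.01% is within reach of counting error. Up to 2 substitutions, a distance added after seeing the data, 2 of 38 expanded clonotypes had a relative (5.26%, 95% exact interval 0.644% to 17.7%), against 292 of 1197 unexpanded ones (24.4%, 22.0% to 26.9%). By library these were 0 of 6 and 0 of 4 in KO and 0 of 5 and 2 of 23 in CON, against unexpanded shares of 25.8% and 24.6% in KO and 22.0% and 25.1% in CON. The difference was -22.2 points (exact sign-flip permutation p = 0.125, the smallest possible). Up to 3 substitutions the shares were 50.0% and 52.0%, so the classes met again.

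**Figure D5:**
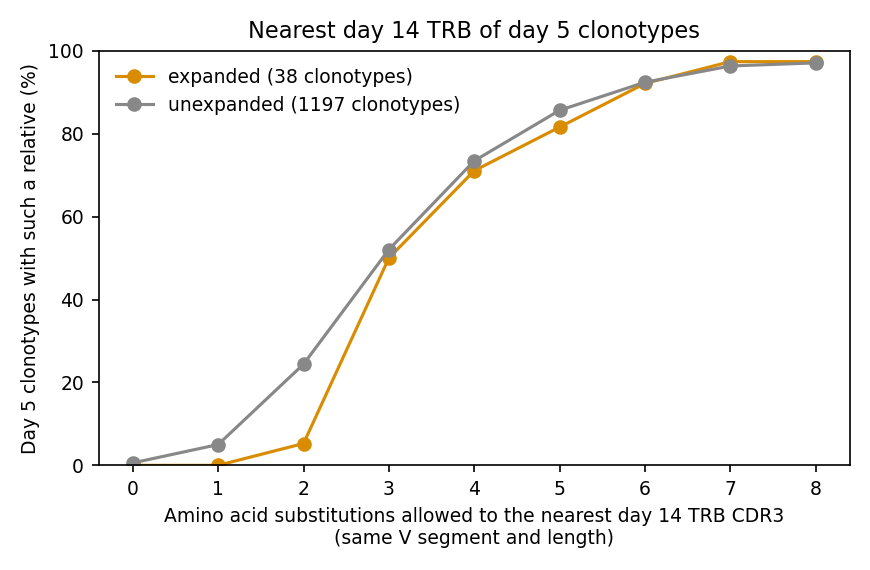
Share of day 5 conventional clonotypes, in percent, with a day 14 TRB of the same V segment and CDR3 length within the number of amino acid substitutions on the horizontal axis, for expanded (orange) and unexpanded (grey) clonotypes. At 2 substitutions the curves stand at 5.26% and 24.4%, and at 3 substitutions at 50.0% and 52.0%.

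The 2 expanded clonotypes with a relative at 2 substitutions were both of CON replicate 2. The 3-cell clonotype with the joint name TRBV12-2+TRBV13-2 and TRBJ2-7 had 1 relative, in 1 cell of CON day 14 replicate 1. The 2-cell clonotype with TRBV1 and TRBJ1-3 had 2 relatives, each in 1 cell of KO day 14 replicate 2. Both kept the J segment of the day 5 chain. With any V segment allowed, 2 of 38 expanded clonotypes had the same CDR3 residues at day 14 (5.26%, exact interval 0.644% to 17.7%). For unexpanded clonotypes it was 25 of 1197 (2.09%, 1.36% to 3.07%). The expanded share was the higher, but the intervals overlapped. Of the 2 expanded clonotypes, a TRBV13-3 clonotype of KO replicate 1 was matched by a TRBV15 chain. The other, the TRBV2 clonotype of CON replicate 1, was matched by a TRBV5 chain. Each match was 1 cell of CON day 14 replicate 1 with other CDR3 nucleotides.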

How the data were processed

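Per the file headers, each deposited table lists assembled contigs with a barcode, a cell call, the chain, segment names, CDR3 and clonotype identifier, and whole-number, unnormalized counts of UMIs and reads. Reads served only to break ties, and the deposited contig length (other values, in bases) was not compared. The submitters' processing notes name the build GRCm38 (mm10) and, with no role for any, Seurat 4.0.0, Cell Ranger 3.1.0, CASAVA 1.8 and R 4.1.2.

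The members and lists were chosen with earlier results of these data known. Barcodes with over 1 productive TRB or over 2 productive TRA chains, possible doublets, were kept. TRAV names of duplicated copies were merged for segment counts (47 of 87 names left). Positions of 80 of 81 segment names came from RefSeq genes of GRCm38. Middle bases used templates of 5 or more sequences that agreed in 50% or more.

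Two-sided exact permutation tests compared library values (Python 3.11.15, pandas 2.3.3, numpy 2.4.6, scipy 1.17.1): 6 relabelings between genotypes, 16 sign patterns within libraries. Neither can reach 0.05. Clonotype counts per segment (10 or more over 8 columns) were tested by the quasi-likelihood F test of edgeR 4.0.16 under R 4.3.3 (library block, offset the clonotypes of the column, Benjamini-Hochberg over 106 segments, adjusted p 0.05), after a check on simulated data. Alternatives were DESeq2 1.42.0, TMM factors, no filter, other clonotype definitions and name merging, a minimum of 2 UMIs, no doublets, expansion at 3 cells, a replicate block and leaving out each library. Named were segments past the threshold, or else the 8 with the smallest p, the 5 TRBV and 5 TRAV segments with most expanded clonotypes, and the 3 most frequent clonotypes per library (ties: all with 3 or more cells, otherwise by TRB CDR3). Replicate numbers were not taken to pair libraries.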

Additional observations from a re-analysis of the deposited data

Results flagged for a closer look

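In KO libraries the expanded clonotypes had shorter CDR3s than the unexpanded ones and in CON libraries longer ones, for both chains. For TRB the difference in mean length was -0.131 and -1.99 residues in KO, against 0.864 and 0.208 in CON, a KO minus CON difference of -1.595 residues (exact permutation p = 0.333, the smallest for 2 against 2). For TRA it was -0.636 and -0.988 in KO, against 0.237 and 0.141 in CON (KO minus CON -1.001, exact permutation p = 0.333). The KO values rest on 6 and 4 expanded clonotypes.

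Data outside the comparisons carried the receptors of expanded clonotypes. There were 37 barcodes not called cells with the TRB of an expanded clonotype of their own library, against 0 with that of another day 5 library. There were also 16 cells with such a TRB and no alpha chain, 5 of them with the TRB of the 10-cell clonotype of CON replicate 1.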

How the results depend on the processing

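The KO minus CON difference in the share of expanded cells kept its sign in all alternatives run, from -13.6 to -2.40 points with 1 library left out, and was -7.19 with expansion set at 3 cells and -8.00 (exact p = 0.5, the smallest possible) with relabelings within replicate number, a block that rests on the number alone (correlation of deviations -0.0274 over 44 segments). With 1 library left out, TRB UMIs ranged from -1.17 to 2.83, TRB length from -0.637 to 0.314, hydropathy from -0.0566 to 0.356 and middle bases from -0.403 to 0.402. Middle bases were 0.0282 with the authors' identifier and 0.107 without the most frequent clonotype of each library. The share of identical TRB chains at day 14 was 0.545 points higher in expanded clonotypes with TRB alone and 7.07 with any V segment. The 7.07 is a mean over libraries (exact sign-flip permutation p = 0.5). It rests on 1 of 6 expanded clonotypes in KO replicate 1 and 1 of 5 in CON replicate 1. Pooled over libraries the shares were 5.26% in expanded and 2.09% in unexpanded clonotypes. The causes were not tested. With 1 library left out, the difference in identical TRB chains of the same V segment ranged from -0.786 to -0.389. That in relatives at 1 substitution ranged from -5.50 to -4.71. Those in TRA UMIs and TRA length ranged from 0.667 to 1.33 and from -0.494 to -0.0859. EdgeR called 0 segments in each of the 14 alternatives it was fitted in, and DESeq2 called 0.

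Of the segments named, 31 values turned. TMM factors moved the median log2 fold change of all 106 segments to -1.62 and DESeq2 to -1.37, against -0.13. With TMM factors TRBJ1-3 was -0.22, TRBV19 -0.52, TRBV13-3 -0.48, TRBV1 -1.29, TRBV13-1 -1.17, TRAV12-2 -0.97, TRAV13-1 -0.75, TRAV6-6 -0.996 and TRAV6-7 -0.75. With DESeq2 TRBJ1-3 was -0.70, TRAV3-3 -0.14, TRBV19 -0.95, TRBV13-3 -0.62, TRBV1 -1.53, TRBV13-1 -1.45, TRAV12-2 -1.3004, TRAV13-1 -0.96, TRAV6-6 -1.21 and TRAV6-7 -1.12. With TRAV copies apart TRAV13-1 was -0.0201 and TRAV6-6 -0.47. TRBV12-2+TRBV13-2 was 0.24 with TRB alone. With 1 library left out, TRBJ1-3 ranged from -0.0307 to 1.86, TRBV19 from -0.10 to 1.38, TRBV1 from -0.0950 to 0.473, TRBV12-2+TRBV13-2 from -0.51 to 0.0876, TRAV12-2 from -5.78 to 0.90 and TRAV6-7 from -5.74 to 1.18. The values below 0 came without CON replicate 2 for TRBJ1-3, TRBV19, TRAV12-2 and TRAV6-7, and without KO replicate 1 for TRBV1. Without the most frequent clonotype of each library TRBV1 was -0.17, TRBV12-2+TRBV13-2 0.0181 and TRAV6-6 -0.0378. With 4 to 6 expanded clonotypes in 3 of the 4 libraries, depth limits every comparison of the classes.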
